A study of Mus musculus with 9 samples.

Results

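The Wnt genes described here are 57 ligands, receptors, antagonists, R-spondin arm genes and effectors or feedback targets, taken by symbol from the 38621 genes of a table of mouse brain mRNA. All 57 were in the table: 17 ligands, 15 receptors, 9 secreted or membrane antagonists, 8 genes of the R-spondin arm, and 8 effectors or feedback targets. The mice were C57BL/6, and the tissue was labelled brain with no region or time named for the RNA samples. The sham group is labelled untreated and was described by the study as a saline-injected control, the ICH group received autologous blood as a model of intracerebral hemorrhage, and the feb group received febuxostat, an inhibitor of xanthine oxidase, before the same blood injection. Each group had 3 mice, and there was no febuxostat group without hemorrhage. A mouse is named by its group and the replicate number of its label.

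Wnt proteins are secreted lipid-modified ligands that bind frizzled receptors together with the coreceptors Lrp5 and Lrp6, which keeps β-catenin from degradation so that it can act with TCF and LEF factors at target genes. Other Wnt signals pass through Ror and Ryk receptors or the planar cell polarity proteins. In the brain, Wnt7a and Wnt7b from neural cells act on the endothelium of the blood-brain barrier, and Tcf7l2 and Lef1 are known as genes of thalamic neurons.

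Levels are given in RPKM, reads scaled to exon length and library size, with 23065757 to 29538009 reads counted on genes in each mouse. A difference is the log2 fold change of RPKM + 0.1 from limma, which is smaller than the log2 ratio of RPKM for genes near 0.1. A gene is called here with an unadjusted p under 0.05 and a fold change over 2, the criteria of the study, and p-values adjusted by Benjamini-Hochberg cover all 29025 genes that entered the test. Of the 57 members, 54 passed the filter of at least 0.1 RPKM in at least 3 mice, and Wnt3a, Wnt11, and Dkk1 did not.

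Several mice stood apart in markers of brain regions, and these values bear on the members below. The summed level of 6 thalamus markers was 131, 176, and 232 RPKM in sham, 91.3, 33.0, and 170 in ICH, and 194, 220, and 88.0 in feb, so ICH mouse 2, feb mouse 3, and ICH mouse 1 were the 3 lowest. The same 3 mice were the 3 highest for 6 markers of cortical excitatory neurons, at 130, 66.7, and 75.1 RPKM against 16.7 to 41.0 in sham, 58.1 in ICH mouse 3, and 46.2 and 60.9 in the other feb mice. Neuron, astrocyte, oligodendrocyte, microglia, and endothelium markers were present in every mouse, with summed levels from 369 to 447, 153 to 694, 287 to 605, 20.003 to 42.4, and 34.2 to 41.8 RPKM. Choroid plexus markers were at 363 to 1030 RPKM in sham, 456 to 965 in ICH, and 30.1 to 87.7 in feb, and meninges markers at 5.09 to 15.1, 6.49 to 12.9, and 3.99 to 8.07. Striatum markers ranged from 38.8 to 299 RPKM, dentate gyrus markers from 8.46 to 29.1, blood markers from 17.1 to 124 with the highest value in ICH mouse 1, and dividing cell markers from 2.81 to 15.8 with the highest value in ICH mouse 2.

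In ICH against sham, 5 of the 54 tested members were called, which is 9.26% beside 2.53% of all genes tested. The members were chosen with earlier results of these data known. Without single mice the count ranged from 1 (without sham mouse 3) to 9 (without ICH mouse 3). Frzb and Dkk3, both antagonists by family, rose, while the receptor Fzd10, the antagonist Sfrp5, and the transcription factor Tcf7l2 fell. Another 5 members had an unadjusted p under 0.05 with a smaller fold change, which makes 10 members or 18.5%, beside 12.3% of all genes. Of these 10, 6 were higher in ICH (Wnt7b, Fzd3, Fzd4, Ryk, Frzb, and Dkk3) and 4 lower (Fzd10, Sfrp2, Sfrp5, and Tcf7l2). Over all genes, 2288 were higher and 1282 lower at that p. With the mice scaled to equal medians there were 7 members, of which 3 were higher and 4 lower. No overlap between ICH and sham was found for 15 members (27.8%, beside 19.4% of all genes), 11 with the ICH mice higher. Over all genes without overlap, 3826 were higher in ICH and 1804 lower. After Benjamini-Hochberg adjustment 0 members passed in limma, beside 7 genes or 0.0241% of all tested. The median difference over the 54 members was 0.02, beside 0.08 over all genes.

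In feb against ICH, 0 members were called in limma, beside 2.43% of all genes, while 8 members (14.8%) had an unadjusted p under 0.05, beside 11.1% of all genes. Wnt4, Wnt7b, Fzd3, Fzd4, Ryk, Frzb, and Ctnnb1 were lower in feb, and Sfrp2 was higher. Over all genes, 1789 were lower in feb and 1423 higher at that p. No overlap between feb and ICH was found for 11 members (20.4%, beside 17.2%), 8 with the feb mice lower. Over all genes without overlap, 2941 were lower in feb and 2043 higher. After adjustment 0 members passed, beside 0.00689% of all genes. The median difference was -0.12 over the members and -0.01 over all genes. This comparison uses the same ICH mice as ICH against sham, so the values of each member are set side by side below and no agreement between the comparisons is drawn from them.

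In feb against sham, 0 members were called in limma, beside 2.2% of all genes, and 1 member, Wnt7a (1.85%), had an unadjusted p under 0.05, beside 8.54% of all genes. The groups did not overlap for 5 members (9.26%, beside 12.7%), which were Wnt7a, Fzd6, and Fzd10, lower in feb, and Fzd2 and Frzb, higher in feb. Over all genes without overlap, 1421 were lower in feb and 2259 higher. The median difference was -0.07 over the members and 0.05 over all genes, and 0 members passed the adjusted p, beside 0.00345% of all genes.

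**Figure D1:**
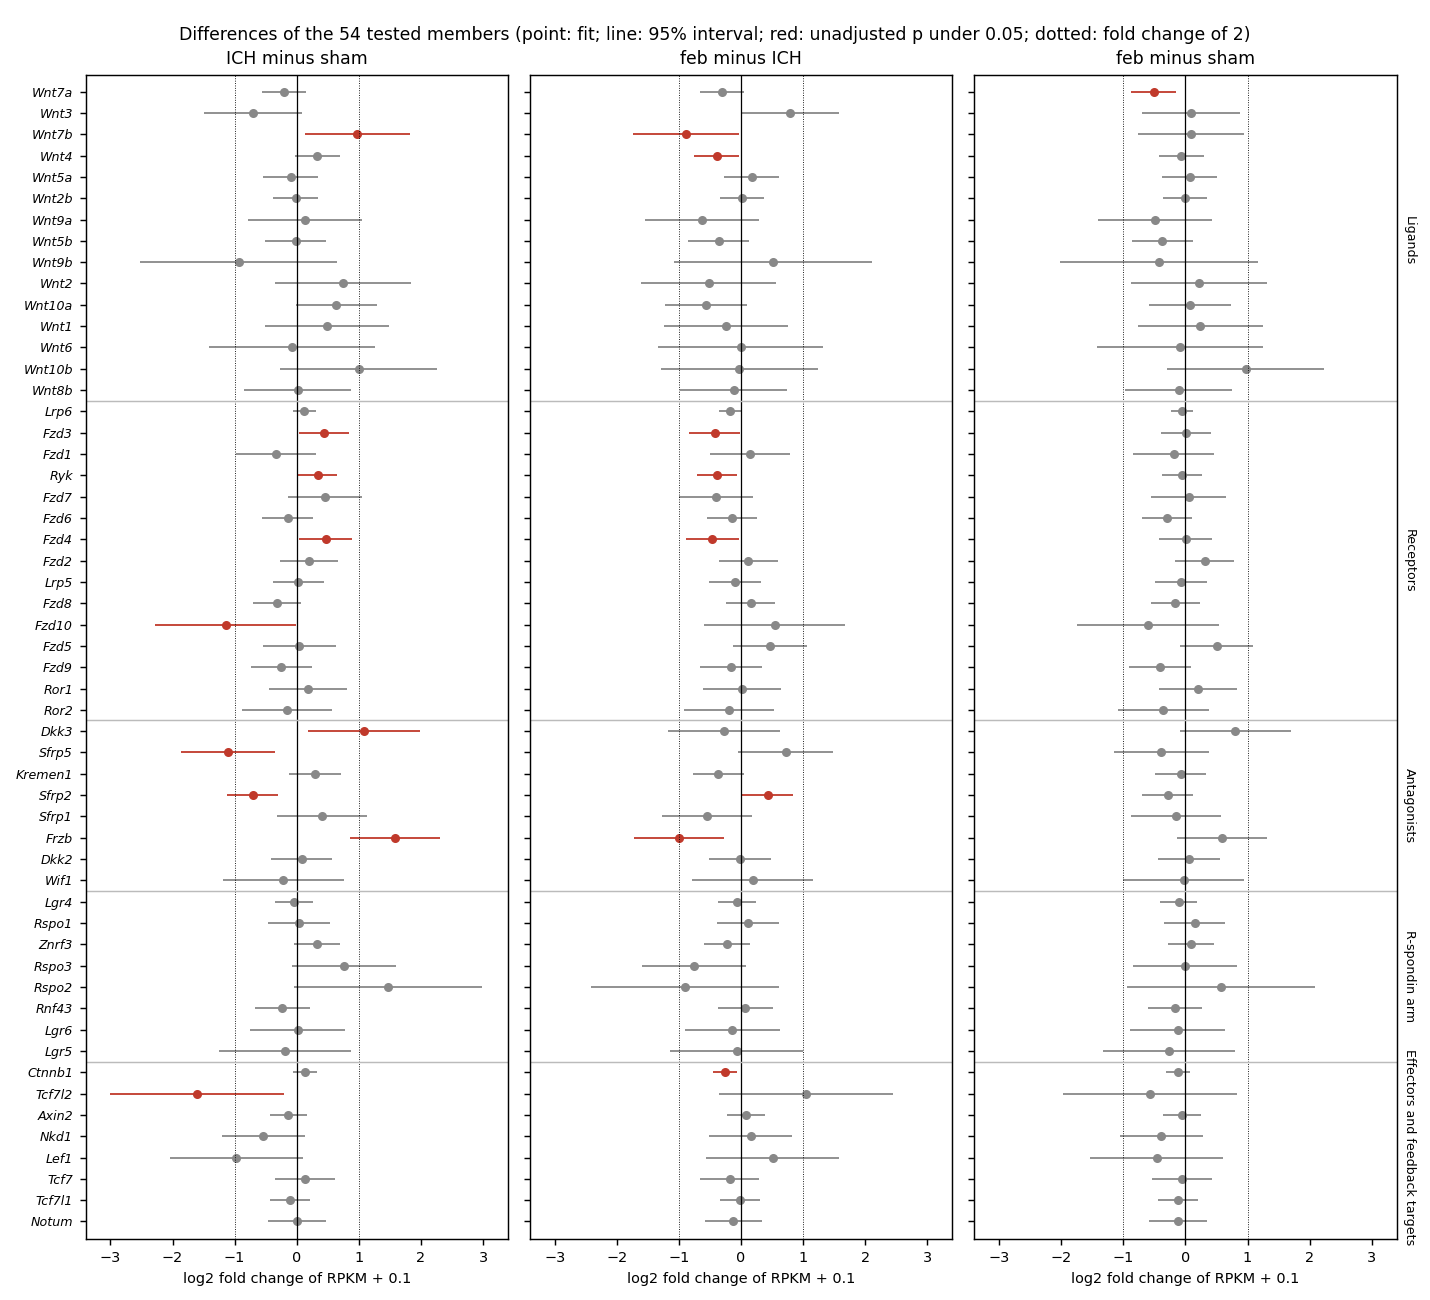
Differences of the 54 tested members in the 3 comparisons, as log2 fold changes of RPKM + 0.1 on the horizontal axis, with members in rows by role and by falling mean level within a role. Points are the limma estimates, lines are 95% intervals, red marks an unadjusted p under 0.05, and dotted lines mark a fold change of 2; Tcf7l2 at -1.61 and Frzb at 1.59 lie farthest from 0 among the red points of ICH minus sham.

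The members covered a wide range of levels. Mean levels over the 9 mice were highest for Ctnnb1 (54.03 RPKM), Dkk3 (29.4), Tcf7l2 (23.7), and Axin2 (10.7), the 4 members with a mean of at least 10. In all, 37 members had a mean of at least 1 RPKM and 20 were lower. The median of the members' mean levels was 6.87 RPKM in the effectors and feedback targets, and it was 1.34 in the receptors, 1.33 in the R-spondin arm, 1.08 in the antagonists, and 0.821 in the ligands.

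**Figure D2:**
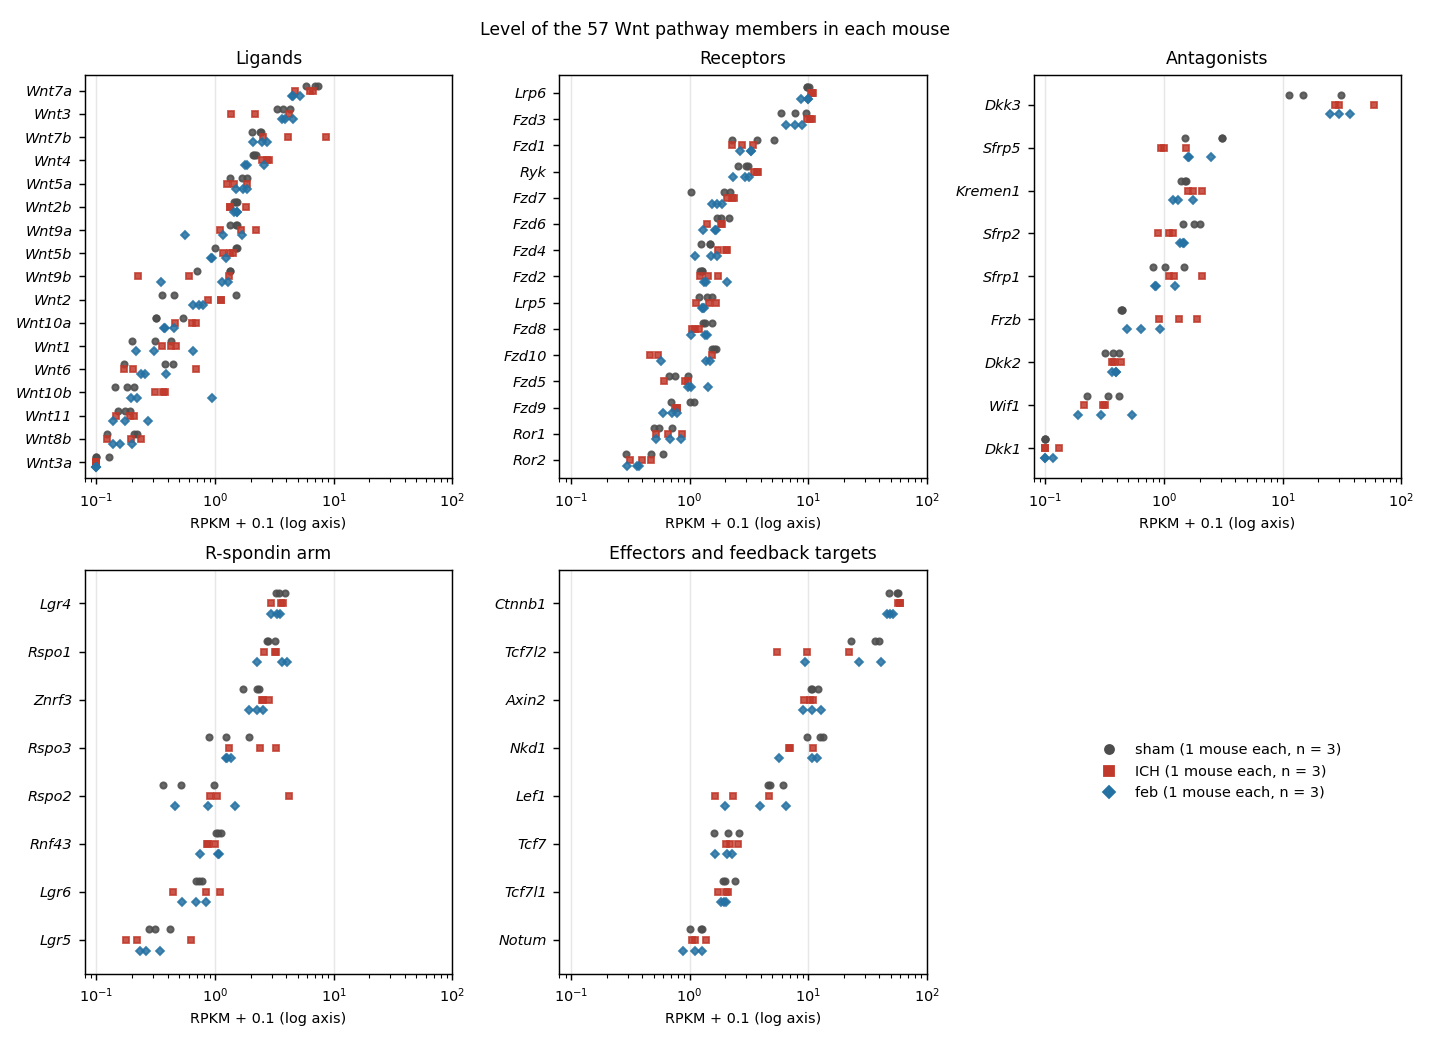
Level of each of the 57 members in each mouse, as RPKM + 0.1 on a log axis, in 1 panel for each role. Each point is 1 mouse (3 for each of sham, ICH, and feb), and members are ordered by their mean; Ctnnb1, Dkk3, and Tcf7l2 lie farthest to the right, while Wnt3a and Dkk1 sit at the left edge, where a value of 0 is drawn at 0.1.

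Among the 17 ligands, Wnt7a, Wnt3, Wnt7b, and Wnt4 had the highest mean levels, at 5.72, 3.37, 3.18, and 2.21 RPKM. The neighbours in this order were close, since the 9 mice of Wnt3 covered 1.27 to 4.45 RPKM and those of Wnt7b 1.96 to 8.50. Of the 15 ligands tested, 0 were called in ICH against sham, and 1, Wnt7b, had an unadjusted p under 0.05 in limma, beside 2.53% and 12.3% of all genes. Wnt3a, a classic activator of β-catenin, was listed at 0 in 8 mice and had 2 reads in sham mouse 2, and Wnt11 lay between 0.0383 and 0.173 RPKM. Of the ligands not described further, Wnt2b, Wnt5a, and Wnt5b lay between 0.817 and 1.78 RPKM, Wnt2 between 0.255 and 1.41, and Wnt8b between 0.0225 and 0.136.

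Wnt7b, on chr15:85535439-85581821 of GRCm38 as the table gives it, was at 1.96, 2.33, and 2.30 RPKM in sham. It was at 4.04, 8.50, and 2.46 RPKM in ICH and at 1.98, 2.41, and 2.66 in feb. Every ICH mouse exceeded every sham mouse, by little in ICH mouse 3, while the feb and ICH mice overlapped. The difference was 0.97 (SE 0.37) in ICH minus sham, with an unadjusted p under 0.05 and an adjusted p of 0.382 in limma. In feb minus ICH it was -0.89 (SE 0.37), again with an unadjusted p under 0.05 and with an adjusted p of 0.437. Without ICH mouse 2 the ICH minus sham difference was 0.51 and the feb minus ICH difference was -0.42, and neither had an unadjusted p under 0.05. Of the 9 fits without 1 mouse, 5 kept that p in ICH minus sham and 1 in feb minus ICH. The 3 mice with the highest Wnt7b, ICH mice 2 and 1 and feb mouse 3, were also the 3 highest in the cortical markers, whose part in the result was not tested. Dividing cell markers also summed to 15.8 and 6.82 RPKM in ICH mice 2 and 1 and to 2.81 to 4.15 in the other 7 mice; their part was not tested.

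Wnt7a, the close paralog of Wnt7b, had another pattern. It was at 6.88, 7.35, and 5.80 RPKM in sham, 6.26, 4.59, and 6.63 in ICH, and 4.45, 5.13, and 4.35 in feb. All feb mice were below all sham mice, and the ICH mice reached into the range of both. The difference in feb minus sham was -0.51 (SE 0.16), with an unadjusted p under 0.05 and an adjusted p of 0.565 in limma, and it was -0.31 (adjusted p = 0.496) in feb minus ICH.

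Wnt4, a ligand with roles in both β-catenin and other Wnt signals, was at 2.11, 1.98, and 2.04 RPKM in sham, 2.62, 2.40, and 2.77 in ICH, and 1.77, 2.49, and 1.67 in feb. Feb mouse 2 lay within the ICH range and the other feb mice lay below the sham mice. The feb minus ICH difference was -0.39 (SE 0.16), with an unadjusted p under 0.05 and an adjusted p of 0.42 in limma. In ICH minus sham it was 0.33 (adjusted p = 0.428). The feb minus ICH result kept an unadjusted p under 0.05 in 6 of 9 other settings and in 4 of 9 fits without 1 mouse. Wnt3 was at 3.21, 3.66, and 4.20 RPKM in sham, 2.06, 1.27, and 4.12 in ICH, and 4.45, 3.77, and 3.57 in feb. ICH mice 1 and 2 were low and ICH mouse 3 was not, and the differences of -0.70 in ICH minus sham and 0.79 in feb minus ICH had adjusted p-values of 0.432 and 0.451 in limma, the second with an unadjusted p just over 0.05.

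Some ligand genes lie next to each other, and 2 of 4 such pairs were highest or lowest in the same mouse, where either counted as a match. Wnt9b (chr11:103727364-103749821) and Wnt3 (chr11:103774150-103817957) are 24.3 kb apart on opposite strands, and both were lowest in ICH mouse 2, where Wnt9b was at 0.126 RPKM against 0.249 to 1.24 in the other mice. Wnt10b and Wnt1, 11.7 kb apart on chromosome 15, were both lowest in sham mouse 1 and both highest in feb mouse 3. Wnt10b was at 0.836 RPKM there, from 45 reads, and at 0.0435 to 0.278 in the others, and Wnt1 was at 0.547 against 0.0997 to 0.368. Wnt6 and Wnt10a, 6.19 kb apart, did not share their highest mouse, which was ICH mouse 1 for Wnt6 (0.596 RPKM) and ICH mouse 2 for Wnt10a (0.585 RPKM). Wnt3a and Wnt9a, 16.2 kb apart on chromosome 11, did not share it either, since Wnt9a was highest in ICH mouse 3 (2.13 RPKM). As a base, ICH mouse 2 was the lowest for 29.6% of the members and 13.4% of all genes. Feb mouse 3 was the highest for 9.26% of the members and 20.7% of all genes. These shares are for single genes, and how often gene pairs match at either end was not counted. ICH mouse 2 also had the lowest summed thalamus markers (33.0 RPKM), whose part in the Wnt9b and Wnt3 values was not tested.

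Among the 15 receptors, the coreceptor Lrp6 and the frizzled receptor Fzd3 had the highest mean levels, at 9.96 and 8.48 RPKM, and Lrp5, the other coreceptor of the β-catenin branch, was at 1.27. Lrp6 was at 9.68, 10.05, and 9.64 RPKM in sham, 10.88, 10.63, and 10.47 in ICH, and 9.89, 8.53, and 9.90 in feb. All ICH mice were above the other 6, by a small margin. The difference was 0.12 (SE 0.08) in ICH minus sham and -0.18 (SE 0.08) in feb minus ICH, with adjusted p-values of 0.528 and 0.46 in limma.

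Fzd3, Fzd4, and Ryk each showed the ICH mice above all 6 mice of the other groups, with no overlap. Fzd3, a frizzled used in axon guidance and planar cell polarity, was at 5.78, 9.53, and 7.59 RPKM in sham, 10.18, 10.71, and 9.67 in ICH, and 8.75, 6.47, and 7.60 in feb. Fzd4, the frizzled that also binds norrin on endothelium, was at 1.40, 1.16, and 1.38 RPKM in sham, 1.96, 1.65, and 1.94 in ICH, and 1.41, 1.002, and 1.60 in feb. Ryk, an atypical tyrosine kinase receptor for Wnt proteins, was at 2.92, 3.02, and 2.49 RPKM in sham, 3.69, 3.59, and 3.39 in ICH, and 3.07, 2.25, and 2.82 in feb.

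The differences of these 3 receptors were below 2-fold. In ICH minus sham they were 0.44 (SE 0.18) for Fzd3, 0.46 (SE 0.19) for Fzd4, and 0.33 (SE 0.14) for Ryk in limma, with unadjusted p-values under 0.05 and adjusted p-values of 0.39, 0.39, and 0.394. In feb minus ICH they were -0.43, -0.46, and -0.39, with unadjusted p-values under 0.05 and adjusted p-values of 0.436, 0.423, and 0.38. Scaling the mice to equal medians gave 0.33, 0.36, and 0.23 in ICH minus sham, none with an unadjusted p under 0.05. Of the 9 fits without 1 mouse, 3, 4, and 3 kept that p for Fzd3, Fzd4, and Ryk in ICH minus sham. In feb minus ICH 3, 4, and 6 of the 9 fits kept it. Microglia markers summed to 22.6 to 29.8 RPKM in sham, 27.1 to 42.4 in ICH, and 20.003 to 24.6 in feb. Striatum markers summed to 38.8 to 295, 131 to 299, and 93.6 to 229 RPKM, and both were lowest in sham mouse 1 among the sham mice, as was Fzd3. Of 6 endothelium markers, 2 were lower (Pecam1 and Flt1) and 1 higher (Mfsd2a) in feb against ICH with an unadjusted p under 0.05 in limma. In ICH against sham 0 of them had such a p. The part of the microglia, striatum, and endothelium markers in the results of the 3 receptors was not tested.

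Fzd10 was the 1 receptor called of 15 tested in ICH against sham, beside 2.53% of all genes, and it was low in only some of the ICH mice. This frizzled (chr5:128600844-128604093) was at 1.51, 1.45, and 1.59 RPKM in sham, 0.440, 0.363, and 1.46 in ICH, and 1.29, 1.39, and 0.480 in feb. ICH mice 1 and 2 and feb mouse 3 were low, and ICH mouse 3 was in the sham range. It fell in ICH against sham by 1.15 on the log2 scale (SE 0.50), with an adjusted p of 0.404 in limma. Without ICH mouse 2 the difference was -0.82, and of the 9 fits without 1 mouse only those without ICH mouse 3 or feb mouse 3 kept the call. The feb minus ICH difference was 0.54 (limma adjusted p = 0.705). The 3 low mice were also the 3 with the lowest thalamus markers, whose part in the result was not tested.

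The other receptors gave no unadjusted p under 0.05 in ICH against sham. Fzd1 was at 2.17 to 5.01 RPKM over the 9 mice, Fzd2, Fzd6, Fzd7, and Fzd8 lay between 0.933 and 2.29, and Fzd5 and Fzd9 between 0.501 and 1.32. Of these, Fzd8 was lower in every ICH mouse than in every sham mouse (difference -0.32, limma adjusted p = 0.453). Ror1 was at 0.405 to 0.759 RPKM and Ror2 at 0.189 to 0.503, and their groups overlapped.

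**Figure D3:**
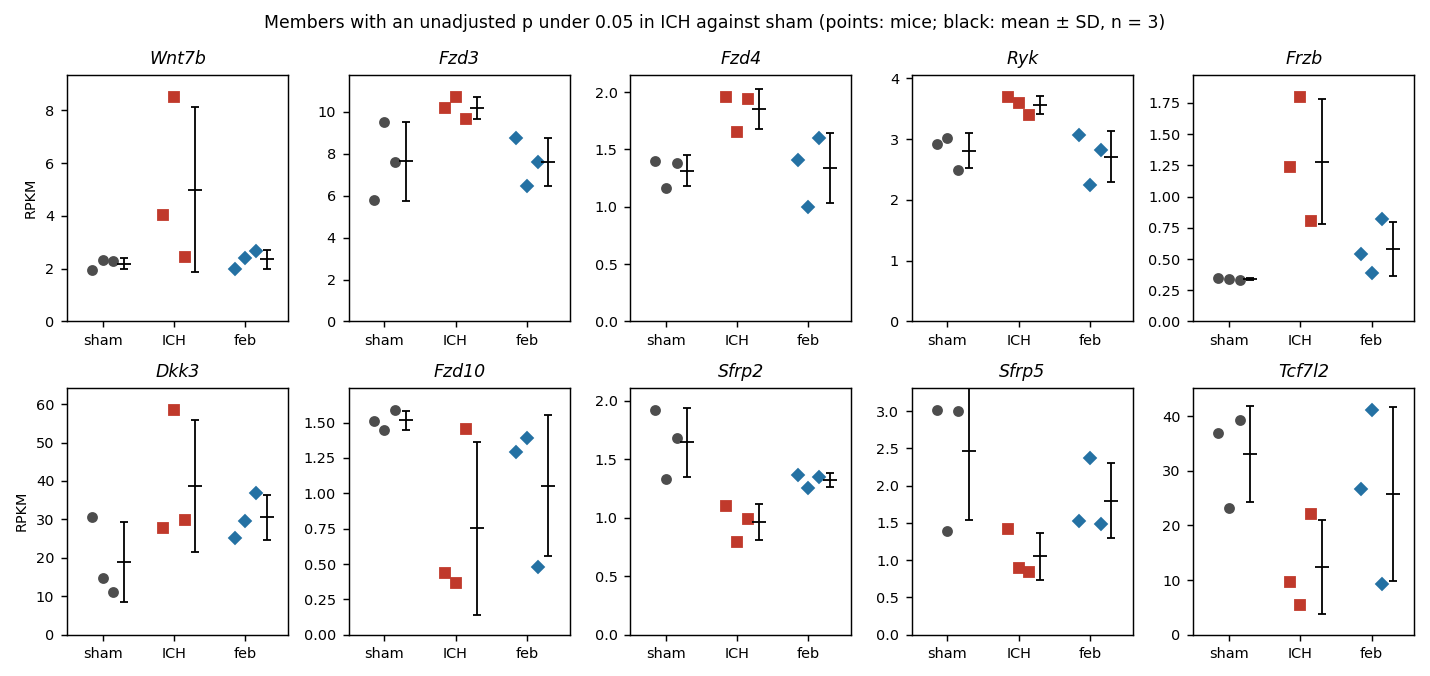
RPKM in each mouse for the 10 members with an unadjusted p under 0.05 in ICH against sham, with groups on the horizontal axis. Coloured points are single mice and black bars are the mean ± SD of 3 mice; Frzb in ICH, at 0.802 to 1.80 RPKM, is above all sham mice, while Fzd10 and Tcf7l2 have an ICH mouse close to the sham mice.

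The antagonists held 3 of the 5 members called in ICH against sham, of 8 tested, beside 2.53% of all genes called. Frzb and Dkk3 rose and Sfrp5 fell, so the role did not move in 1 direction. Frzb, also named Sfrp3, and Sfrp2 and Sfrp5 are secreted frizzled-related proteins, which bind Wnt proteins outside the cell. Dkk3 is a divergent Dickkopf protein, while Dkk1, which binds Lrp6, had at most 2 reads in any mouse.

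Frzb (chr2:80411970-80447625) was at 0.345, 0.343, and 0.330 RPKM in sham, from 29 to 33 reads. It was at 1.24, 1.80, and 0.802 RPKM in ICH and at 0.537, 0.392, and 0.817 in feb. All ICH and all feb mice were above all sham mice, and feb mouse 3 overlapped with ICH mouse 3. The difference in ICH minus sham was 1.59 (SE 0.32), with an adjusted p of 0.284 in limma, and it was 1.32 without ICH mouse 2 and still called. In feb minus ICH it was -0.998 (SE 0.32), with an unadjusted p under 0.05 and an adjusted p of 0.342, just short of the 2-fold criterion. It was called in feb against ICH with a pseudocount of 0.01, with equal medians, and with voom on the recovered reads. Frzb was highest in the 3 mice with the highest cortical markers, which rose with it in ICH against sham in 6 of 6 markers called; their part in the result was not tested, and in a bulk sample a change in the number of cells of a type cannot be told apart from a change of RNA per cell.

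Dkk3 (chr7:112116017-112159057), abundant in forebrain neurons, was at 30.75, 14.81, and 11.22 RPKM in sham, 27.74, 58.40, and 29.97 in ICH, and 25.16, 29.60, and 36.89 in feb. Sham mouse 1 lay within the ICH range, and ICH mouse 2 was far above the other 8 mice. It rose in ICH against sham by 1.08 on the log2 scale (SE 0.39), with an adjusted p of 0.377 in limma. The difference was 0.74 without ICH mouse 2, 0.77 without sham mouse 3, and 0.97 without sham mouse 2 or with equal medians, and it was then not called. In feb minus sham it was 0.80 (adjusted p = 0.617). The cortical markers were also lowest in sham mice 3 and 2 and highest in ICH mouse 2, and their part in the result was not tested.

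Sfrp2 and Sfrp5 were lower in ICH. Sfrp2 was at 1.92, 1.33, and 1.69 RPKM in sham, 1.1003, 0.795, and 0.993 in ICH, and 1.37, 1.25, and 1.35 in feb. The ICH mice were below all 6 other mice. Its difference was -0.71 (SE 0.18) in ICH minus sham, with an adjusted p of 0.334 in limma, and 0.43 (SE 0.18, adjusted p = 0.436) in feb minus ICH, both with an unadjusted p under 0.05. The feb minus ICH result kept an unadjusted p under 0.05 in only 4 of 9 other settings and in 3 of 9 fits without 1 mouse. Equal medians and voom were among the settings that lost it. An antisense gene, Gm26771, covers 16.1% of the exon bases of Sfrp2, and reads of the 2 genes cannot be told apart if the counting did not use strand.

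Sfrp5 was at 3.01, 1.39, and 2.996 RPKM in sham, 1.42, 0.900, and 0.844 in ICH, and 1.53, 2.38, and 1.48 in feb. Sham mouse 2 lay within the ICH range and the feb mice were all above the ICH mice. It fell in ICH against sham by 1.11 on the log2 scale (SE 0.34), with an adjusted p of 0.346 in limma, and its feb minus ICH difference was 0.72 (SE 0.34, adjusted p = 0.469). Without ICH mouse 3 the ICH minus sham difference was -0.98, without sham mouse 1 it was -0.93, and without sham mouse 3 it was -0.93, each under 2-fold. Striatum markers summed to 38.8, 295, and 106 RPKM in sham, 131, 224, and 299 in ICH, and 229, 93.6, and 197 in feb, so sham mouse 2, the sham mouse with the lowest Sfrp5, had the highest striatum sum of its group. The part of these markers in the result was not tested.

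The other antagonists gave no unadjusted p under 0.05 in any comparison. Sfrp1 was at 0.708 to 1.98 RPKM over the 9 mice, with the highest value in ICH mouse 1. Kremen1, a receptor for Dickkopf proteins, was at 1.29 to 1.42 RPKM in sham, 1.51 to 1.98 in ICH, and 1.09 to 1.65 in feb, so the ICH mice were above the sham mice (difference 0.29, limma adjusted p = 0.512). Dkk2, at 0.221 to 0.330 RPKM, and Wif1, a Wnt-binding inhibitor, at 0.0893 to 0.436 RPKM, overlapped between all groups.

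In the R-spondin arm, R-spondins bind Lgr4, Lgr5, and Lgr6 and hold back the ubiquitin ligases Znrf3 and Rnf43, which otherwise remove frizzled receptors from the cell surface. Of its 8 genes, 0 were called and 0 had an unadjusted p under 0.05 in limma in any comparison. Over all genes the shares were 2.2% to 2.53% and 8.54% to 12.3%, so 0 of so few genes says little. Lgr4 had the highest mean level, at 3.18, 3.80, and 3.34 RPKM in sham, 3.68, 2.86, and 3.498 in ICH, and 2.88, 3.45, and 3.22 in feb, and the groups overlapped. Rspo1 followed with a mean of 2.98 RPKM and a range of 2.15 to 3.94.

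Rspo2 varied more than any other gene of the arm, and 1 mouse stood apart. It was at 0.876, 0.414, and 0.268 RPKM in sham, 0.811, 4.07, and 0.930 in ICH, and 0.364, 1.38, and 0.770 in feb. ICH mouse 2 was far above the other 8 mice, and sham mouse 1 overlapped with the ICH mice. The ICH minus sham difference was 1.47 (SE 0.66), with an adjusted p of 0.409 in limma. Without ICH mouse 2 the difference was 0.77, and it was not called. Rspo2 was called with voom on the recovered reads and in the fits without ICH mouse 1, ICH mouse 3, or sham mouse 1. Rspo3 was at 1.85, 0.792, and 1.13 RPKM in sham, 2.29, 3.20, and 1.21 in ICH, and 1.17, 1.13, and 1.26 in feb. ICH mice 1 and 2 were the 2 highest, and the differences of 0.76 in ICH minus sham and -0.76 in feb minus ICH had adjusted p-values of 0.428 and 0.48.

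The ligases showed small differences in opposite directions. Znrf3 was at 1.62 to 2.23 RPKM in sham, 2.40 to 2.74 in ICH, and 1.84 to 2.44 in feb, and every ICH mouse exceeded every sham mouse (difference 0.33, limma adjusted p = 0.432). Rnf43 was at 0.914 to 1.01 RPKM in sham, 0.759 to 0.902 in ICH, and 0.648 to 0.991 in feb, and every ICH mouse was below every sham mouse (difference -0.23, limma adjusted p = 0.611). Lgr5 and Lgr6 were at 0.0778 to 0.521 and 0.344 to 0.996 RPKM, both highest in ICH mouse 1 and lowest in ICH mouse 2.

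Among the effectors and feedback targets, Tcf7l2 had the largest difference of the 54 members tested in ICH minus sham. This TCF factor (chr19:55741810-55933654) was at 36.9, 23.1, and 39.2 RPKM in sham, 9.69, 5.39, and 22.0 in ICH, and 26.8, 41.1, and 9.30 in feb. All ICH mice were below all sham mice, ICH mouse 3 by little, and feb mouse 3 was as low as ICH mouse 1 while the other feb mice were in or above the sham range. It fell in ICH against sham by 1.61 on the log2 scale (SE 0.61), with an adjusted p of 0.382 in limma. The feb minus ICH difference was 1.04 (SE 0.61, limma adjusted p = 0.549). The ICH minus sham difference was -1.14 without ICH mouse 2, which was not called, and -2.14 without ICH mouse 3, which was; without ICH mouse 1, sham mouse 1, or sham mouse 3 it was -1.55, -1.51, and -1.47 and not called.

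Tcf7l2 has 2 start sites in RefSeq on GRCm38.p6, and the gene-level RPKM sums over both. The 250 bases before each start are shown because the starts differ in base composition and motifs. Capitals mark TCF/LEF cores and GC boxes. The cores searched were CTTTGAA, then CTTTGAT, then CTTTGTT, then CTTTGTA, and the GC box was GGGCGG, all searched on both strands (runs of overlapping GC boxes appear as 1 stretch).
Tcf7l2 first start, chr19:55741560-55741809, plus strand: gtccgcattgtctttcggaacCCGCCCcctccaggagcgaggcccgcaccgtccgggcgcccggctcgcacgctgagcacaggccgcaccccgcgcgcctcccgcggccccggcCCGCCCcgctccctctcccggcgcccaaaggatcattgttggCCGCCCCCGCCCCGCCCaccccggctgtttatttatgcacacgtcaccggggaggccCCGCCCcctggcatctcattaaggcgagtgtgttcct
Tcf7l2 inner start, chr19:55895071-55895320, plus strand: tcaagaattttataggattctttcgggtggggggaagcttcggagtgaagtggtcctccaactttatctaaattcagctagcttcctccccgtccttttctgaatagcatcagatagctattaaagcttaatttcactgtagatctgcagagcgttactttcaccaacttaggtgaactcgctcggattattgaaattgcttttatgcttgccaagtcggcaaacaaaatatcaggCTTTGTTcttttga

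The first Tcf7l2 window held 6 GC boxes, no TCF/LEF core, and 72.8% G and C, while the inner one, which lies in an intron of longer Tcf7l2 transcripts, held 1 TCF/LEF core, no GC box, and 40.8% G and C. Promoter windows were found for 40 of the 57 members, 50 windows in all. A TCF/LEF core was in 6 of these 50 (12%), beside 14.8% of the 32851 windows of all genes, and a GC box in 36 (72%), beside 32.7%. The windows with a core belonged to Fzd7, Wnt5b, Wnt11, Lef1, Tcf7l2, and Dkk1. A match of these letters is a description of the sequence and not a binding site.

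The windows of Sfrp2 and Sfrp5, the 2 antagonists lower in ICH with an unadjusted p under 0.05, are shown in the same way, to set them beside each other.
Sfrp2, chr3:83766071-83766320, plus strand: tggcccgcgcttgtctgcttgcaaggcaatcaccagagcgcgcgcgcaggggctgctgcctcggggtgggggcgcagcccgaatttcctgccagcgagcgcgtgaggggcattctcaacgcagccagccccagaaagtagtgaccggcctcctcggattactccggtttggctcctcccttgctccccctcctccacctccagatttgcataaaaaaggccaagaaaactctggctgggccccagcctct
Sfrp5, chr19:42202253-42202502, minus strand: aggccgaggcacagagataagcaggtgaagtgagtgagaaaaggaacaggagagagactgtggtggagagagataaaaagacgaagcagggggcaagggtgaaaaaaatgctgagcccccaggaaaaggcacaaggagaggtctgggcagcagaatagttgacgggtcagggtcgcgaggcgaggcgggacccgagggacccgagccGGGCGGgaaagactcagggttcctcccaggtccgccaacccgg

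Neither window held a TCF/LEF core, and Sfrp5 had 1 GC box and Sfrp2 had none. G and C made up 63.6% of the Sfrp2 window and 59.6% of the Sfrp5 window, beside a median of 52.4% over all windows and 66.4% over those of members.

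Lef1, the other β-catenin partner with high levels in thalamus, was at 4.46, 4.71, and 6.04 RPKM in sham, 2.24, 1.54, and 4.56 in ICH, and 3.82, 6.45, and 1.90 in feb. The 3 low mice were the same as for Tcf7l2, and the ICH minus sham difference of -0.97 (SE 0.47) had an adjusted p of 0.425 in limma. Nkd1, a feedback inhibitor that binds Dishevelled, was at 12.4, 9.75, and 13.2 RPKM in sham, 6.87, 6.79, and 10.97 in ICH, and 10.7, 11.8, and 5.61 in feb, again lowest in those 3 mice (difference -0.54, adjusted p = 0.458). An antisense gene covers 13.7% of the exon bases of Lef1.

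For 7 of the 54 tested members (13%), namely Wnt9b, Fzd10, Rnf43, Axin2, Lef1, Tcf7l2, and Nkd1, the 3 lowest mice were ICH mice 1 and 2 and feb mouse 3, the 3 mice with the lowest thalamus markers. This held for 2.32% of all genes tested. These 3 mice were the 3 highest for Wnt1, Wnt7b, and Frzb, which is 5.56% of the members and 5.13% of all genes. Over all members, ICH mouse 2 had the lowest value for 16 of 54 (29.6%, beside 13.4% of all genes) and feb mouse 3 for 13 (24.1%, beside 9.99%). The part of regional tissue makeup in these values was not tested.

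**Figure D4:**
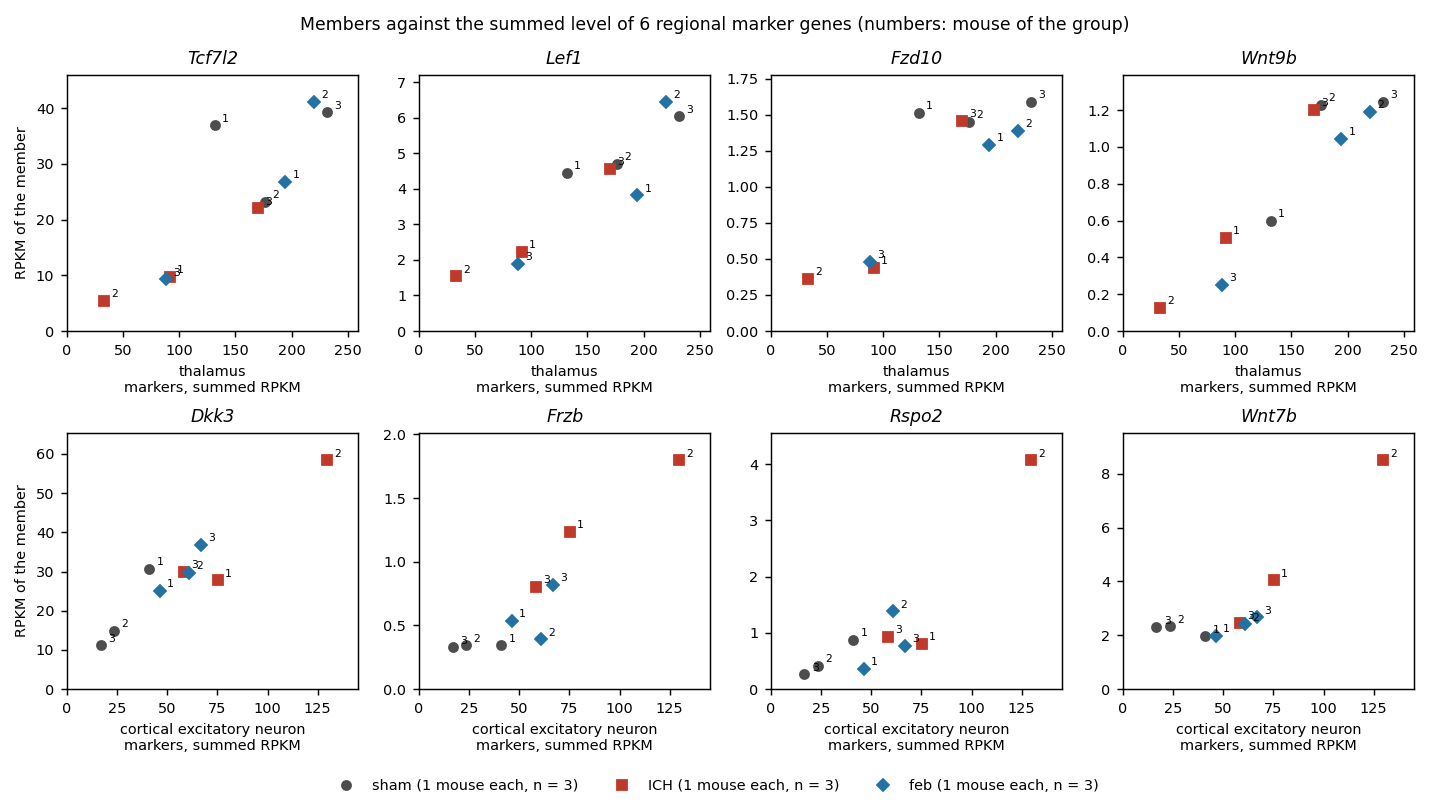
RPKM of 8 members against the summed RPKM of 6 marker genes in each mouse, with thalamus markers in the upper row and cortical excitatory neuron markers in the lower row. Points are single mice with their number in the group; ICH mice 1 and 2 and feb mouse 3 lie at the lower left for Tcf7l2, Lef1, Fzd10, and Wnt9b, and ICH mouse 2 lies at the upper right for Dkk3, Frzb, Rspo2, and Wnt7b.

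Axin2, the scaffold of the degradation complex and a widely used readout of β-catenin signals, differed little between groups. It was at 12.01, 10.6, and 10.8 RPKM in sham, 10.2, 9.22, and 10.96 in ICH, and 12.7, 10.6, and 8.98 in feb. The ICH minus sham difference was -0.14 (SE 0.13, limma adjusted p = 0.664) with a 95% interval of -0.44 to 0.16, and the feb minus ICH difference was 0.08 with an interval of -0.22 to 0.38. Notum, a secreted enzyme that inactivates Wnt proteins, gave a difference of 0.00 (SE 0.20) in ICH minus sham, and antisense genes overlap its exons. Tcf7 and Tcf7l1, the other TCF factors, were at 1.496 to 2.51 and 1.63 to 2.30 RPKM with overlapping groups.

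Ctnnb1, which encodes β-catenin, had the highest level of all members. It was at 48.2, 56.8, and 56.4 RPKM in sham, 57.3, 59.7, and 60.0 in ICH, and 52.3, 49.1, and 46.5 in feb. The ICH mice were above all 6 others. The feb minus ICH difference was -0.26 (SE 0.08), with an unadjusted p under 0.05 and an adjusted p of 0.343 in limma, and the ICH minus sham difference was 0.14 (SE 0.08, adjusted p = 0.501). Of the 4 microglia markers, 3 were lower in feb against ICH with an unadjusted p under 0.05 and 1 was called, and their part in the Ctnnb1 result was not tested. Exons of Ulk4 on the other strand cover 14.6% of its exon bases.

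Another 49 genes of the pathway that are not among the 57 were counted in the same way, and 47 were tested. In ICH against sham 1 was called, Wisp1, and 8 had an unadjusted p under 0.05, 7 of them higher, beside 2.53% and 12.3% of all genes. At that p, all genes split into 2288 higher and 1282 lower. In feb against ICH 2 were called, Wisp1 and Sostdc1, both lower in feb, and 8 had an unadjusted p under 0.05, 7 of them lower, beside 2.43% and 11.1%. All genes split into 1789 lower and 1423 higher there. In feb against sham 1 was called, Sostdc1, and 3 had an unadjusted p under 0.05, beside 2.2% and 8.54%.

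Wisp1, a matricellular protein gene induced by β-catenin, was at 0.160, 0.0693, and 0.110 RPKM in sham, 0.474, 0.400, and 0.270 in ICH, and 0.0479, 0.158, and 0.0550 in feb. These values rest on few reads, 10 to 26 in sham, 39 to 64 in ICH, and 7 to 22 in feb. The ICH mice were above all others, with differences of 1.17 (SE 0.33) in ICH minus sham and -1.39 (SE 0.33) in feb minus ICH in limma, and adjusted p-values of 0.345 and 0.259. Sostdc1, a secreted Wnt and BMP antagonist, was at 4.64, 1.81, and 3.80 RPKM in sham, 3.24, 2.04, and 2.38 in ICH, and 0.496, 0.520, and 0.768 in feb. It fell by 1.93 in feb against ICH (SE 0.34, adjusted p = 0.181 in limma) and by 2.26 in feb against sham. All 7 choroid plexus markers were called lower in feb against ICH as well, and their part in the Sostdc1 result was not tested.

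Inside the cell and in the planar cell polarity group the differences were smaller. Apc, the large scaffold of the β-catenin degradation complex, was at 44.2, 51.2, and 46.1 RPKM in sham, 61.6, 58.1, and 57.4 in ICH, and 48.8, 47.0, and 51.1 in feb, with the ICH mice above all others. Its differences were 0.32 (SE 0.08) in ICH minus sham and -0.27 (SE 0.08) in feb minus ICH in limma, with unadjusted p-values under 0.05 and adjusted p-values of 0.334 and 0.303. Daam2, a formin of the polarity branch, went the other way, at -0.36 in ICH minus sham and 0.54 in feb minus ICH (limma adjusted p = 0.356 and 0.248). Of the 11 polarity genes, 4 were higher and 1 lower at an unadjusted p under 0.05 in ICH against sham, and of the 16 cytoplasmic transduction genes 2 were higher and 0 lower, beside 12.3% of all genes in either direction. Porcn and Wls, needed for Wnt secretion, and the 4 endothelial coreceptor genes Adgra2, Reck, Ndp, and Tspan12 gave 0 with an unadjusted p under 0.05 in ICH against sham in limma.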

How the data were processed

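Brain mRNA of 9 mice was measured, 3 each in the sham, ICH, and feb groups, which were taken from the sample labels. Per the labels and the methods of the study, the authors depleted ribosomal RNA, made stranded libraries with UMIs, trimmed reads with Trimmomatic (version 0.36), merged reads by UMI, aligned them to GRCm38, and counted them with featureCounts (Subread 1.5.1); the authors deposited RPKM values with exon lengths. The use of strand in counting is not given in the sources used here. The authors tested with edgeR (3.12.1) on counts, which was not done here because the table holds RPKM.

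The whole reads behind the RPKM values were recovered (100% of values whole) and used for depth and for voom only. Genes were tested with limma (version 3.58.1, R 4.3.3; lmFit, eBayes with trend) on log2(RPKM + 0.1), keeping genes that reached 0.1 RPKM in 3 or more of the 9 mice, all groups in 1 fit and no block. P-values set a group difference against the spread between mice within groups, as limma estimates it from these 9 samples. An exact two-sided permutation test of 3 against 3 cannot go below 0.1. The test was tried on simulated data, and alternatives changed the pseudocount, filter, scaling, model, and mice used. The members, pathway lists, and marker lists were chosen with earlier results of these data known. The rule for naming covered all 57 members, and those with an unadjusted p under 0.05 or the highest mean in a role were given in every mouse. Promoter sequences are RefSeq windows of GRCm38.p6, and exon overlaps come from the exon positions deposited with the RPKM values. The GENCODE annotation was used only to place the promoter windows shown within transcripts.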

Additional observations from a re-analysis of the deposited data

How the results depend on the processing

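With 3 mice a group, most member results moved with the mice or model used. A result on a called member had to keep an unadjusted p under 0.05 and a fold change over 2, and any other result only the p. Of 340 alternative values for 19 results on single members, 240 kept their criterion, 100 did not, and 0 reversed. The 100 mix lost p-values with fold changes that fell under 2. Sfrp2 in ICH against sham, Frzb and Ctnnb1 in feb against ICH, and Wnt7a in feb against sham were under 2-fold and judged on p alone. They kept an unadjusted p under 0.05 in every alternative that tested them. So did the called members Frzb and Sfrp5 in ICH against sham. In that comparison Frzb fell under 2-fold with a pseudocount of 1. Sfrp5 did so with a pseudocount of 1 or without ICH mouse 3, sham mouse 1, or sham mouse 3. Frzb was not tested with an RPKM of at least 1 in 3 mice. The number of members called in ICH against sham (5) became 3 with an RPKM of at least 1 in 3 mice, 2 with a pseudocount of 1, 8 with voom, and 1 to 9 on leaving out single mice (1 without sham mouse 3, 2 without ICH mouse 2, 9 without ICH mouse 3). Members with an unadjusted p under 0.05 there (10) became 16 with voom and 3 to 12 without single mice (3 without sham mouse 3, 4 without ICH mouse 2). In feb against ICH, 1 member (Frzb) was called with equal medians, a pseudocount of 0.01, or voom, and 0 to 6 without single mice (6 without ICH mouse 3, 2 without feb mouse 3), and the 8 members with an unadjusted p under 0.05 became 3 to 10 (3 without sham mouse 3, 5 without ICH mouse 1, ICH mouse 2, feb mouse 1, or feb mouse 2). In feb against sham, 0 to 1 members were called without single mice (1 without feb mouse 1 or sham mouse 1), and the 1 member with an unadjusted p under 0.05 became 3 with voom and 1 to 6 without single mice (6 without sham mouse 2).

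Of all genes, 735, 706, and 639 were called in ICH against sham, feb against ICH, and feb against sham. With an RPKM of at least 1 these became 346, 287, and 263, where fewer genes were tested, and with a pseudocount of 1 they became 158, 128, and 91. Leaving out single mice gave 619 to 1299 in ICH against sham (1299 without sham mouse 2) and 462 to 1150 in feb against sham (1150 without sham mouse 2, 1030 without feb mouse 2). Equal medians turned the 423 higher and 312 lower genes of ICH against sham into 296 and 443, and the 461 and 178 of feb against sham into 300 and 252. The replicate numbers did not pair the mice (correlation of same-numbered deviations -0.127 to 0.019), and not every mouse correlated best with its own number. With the replicate number as a block, 4 (Rspo2 among them), 0, and 0 members were called and 717, 684, and 615 genes. The causes of these moves were not tested. Members with a mean under 0.1 RPKM rest on a few reads. Of these, Wnt3a, Wnt11, and Dkk1 were not tested, and whether a difference could be detected at this depth was not examined.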
